A study of Homo sapiens with 47 samples.

Results

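The 10 genes described here encode the replicative MCM helicase and the proteins that load, activate or restrain it: MCM2, MCM3, MCM4, MCM5, MCM6, MCM7, CDC6, CDC45, GINS2 and GMNN. They were chosen by name, and all 10 had a row among the 18651 gene rows of the table. The data are counts of unique molecular identifiers (UMIs, random tags that mark single cDNA molecules) in 47 single HEK293 cells, an immortalised human cell line of embryonic kidney origin that carries adenovirus sequence. All cells were grown in DMEM with glutamine and 10% fetal calf serum, were untreated, and were captured on a microfluidic circuit in 1 run. The labels name no separate cultures and no groups, so the cells form 1 sample, no comparison of groups was possible, and no p-values are given. Tags were placed at the 5' end of poly(A) RNA.

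A cell had 29325 to 138647 endogenous UMIs, with a median of 59689. Levels are given as UMIs per cell and as UMIs per 100000 endogenous UMIs, which sets all cells to the same total but need not remove every effect of depth. Spike-in RNAs, added at 20000 molecules per cell, were recovered at 12.9% to 23.6%, and their spread over cells serves as a measure of technical spread. Of the lineage markers looked at, fibroblast genes had 13 UMIs over all cells (COL1A1 and COL1A2, the only 2 of 5 with a row). The kidney epithelium genes had 56, while the 4 neuronal genes UCHL1, NEFM, NEFL and INA had 817, 462, 112 and 15. Cell 52 had the fewest endogenous UMIs per spike-in UMI, 8.99 against a median of 17.6, and leaving it out moved no result by more than the spread set for it.

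Before a cell copies its DNA, the origin recognition complex marks origins, and CDC6 together with CDT1 loads the ring of MCM2 to MCM7 onto them in late mitosis and G1. The ring holds 1 copy of each of the 6 subunits. At the start of S phase, CDC45 and the GINS complex, of which GINS2 is a subunit, join the loaded ring and turn it into the active helicase. Geminin, encoded by GMNN, binds CDT1 from S phase to mitosis and so blocks renewed loading. Transcription of many of these genes rises towards S phase under E2F factors.

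Promoters are shown because E2F sites are a textbook feature of these genes. Whether matches go with co-variation over cells was not tested. RefSeq promoters of GRCh38.p14, 250 bases before to 50 after a start site, were at hand for 8 members (MCM4 and MCM5 not used here). The 4 words TTTGGCGC, TTTCCCGC, TTTCGCGC and TTTGCCGC were searched on both strands, and matches could overlap, since a word and its reverse complement share bases. Of the 8 members, 7 had a match in at least 1 of their promoters, against 3.99% of 27305 genes with promoter entries. CDC45 had none in its 3 entries. MCM6 had 4 matches, as 2 overlapping pairs, and MCM2, MCM3 and MCM7 had 2 each. The shorter word CCAAT was in 7 of the 8 (MCM2 was without it) and in 39.7% of genes. Each line gives a stretch of 30 bases on the strand of the gene, with the match in capitals. A match is a description of the letters, not of binding.
MCM2, chr3:127598402-127598431 (+): cgtgaaccactTTTCGCGCgaaacctggtt
MCM3, chr6:52284728-52284757 (-): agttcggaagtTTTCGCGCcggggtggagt
MCM6, chr2:135876577-135876606 (-): agggctttgcaTTTGGCGCgaaatcccttt
MCM6, chr2:135876515-135876544 (-): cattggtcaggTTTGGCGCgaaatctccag
MCM7, chr7:100101388-100101417 (-): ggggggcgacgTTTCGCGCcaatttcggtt
CDC6, chr17:40287875-40287904 (+): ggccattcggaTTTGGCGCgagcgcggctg
GINS2, chr16:85688967-85688996 (-): ctctcgccgtgGCGGGAAAacggcggccgc
GMNN, chr6:24775322-24775351 (+): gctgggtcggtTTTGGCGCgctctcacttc

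The mRNAs of the 6 helicase subunits were far from equal in number, although the ring holds them in equal number. MCM7 had 890 UMIs over all cells, MCM2 506, MCM4 365, MCM3 252, MCM6 179 and MCM5 162, together 2354 or 0.0806% of all endogenous UMIs. MCM7 thus made up 37.8% of the subunit UMIs (exact binomial interval at 95%, 35.8% to 39.8%, counting error only) and MCM5 6.88% (5.89% to 7.98%), a ratio of 5.49. MCM2 held 21.5%, MCM4 15.5%, MCM3 10.7% and MCM6 7.60%. Since a tagged 5' end stands for 1 molecule whatever the length of the mRNA, these are shares of molecules counted. Lengths differ little, from 2957 bases for MCM7 to 4183 for MCM4 in GENCODE 29, and dividing by length kept the order of the 6, with 42.98% for MCM7 and 6.55% for MCM5. Whether long mRNAs were copied to their 5' ends less often was not tested.

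The first place of MCM7 was shared by most cells. MCM7 had the most UMIs of the 6 in 42 of 47 cells, in 39 of them alone. MCM2 was highest, alone or tied, in 6 cells, MCM3 and MCM4 in 1 each, and MCM5 and MCM6 in none. The share of MCM7 within a cell's subunit UMIs was 38.1% ± 8.61 (SD, n = 47), from 22.2% to 56.2%, and that of MCM5 was 7.03% ± 6.15, from 0% to 32%. The highest share came from cell 23, the shallowest, with 8 MCM5 UMIs among 25. In the 30 cells with label numbers up to 48 MCM7 held 39.1%, and in the 17 above it held 35.8%.

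**Figure D1:**
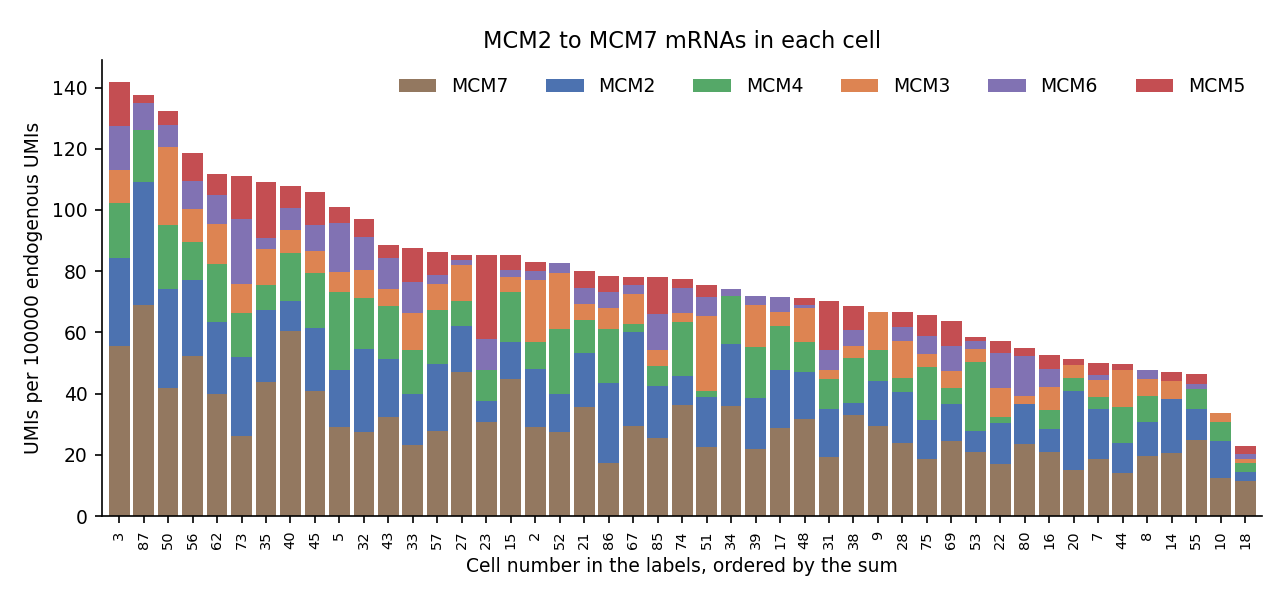
Stacked bars give the UMIs per 100000 endogenous UMIs of MCM2 to MCM7 in each of the 47 cells, ordered by their sum, with cell numbers below. The sum runs from 142 in cell 3 to 23.03 in cell 18, and the MCM7 segment is the largest in most cells.

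MCM7, a subunit of the ring's catalytic core, was counted in every cell, with 4 to 50 UMIs and a median of 18. Scaled for depth its mean was 29.8 ± 12.6 per 100000 (SD, n = 47), with 11.5 in cell 18 and 68.9 in cell 87 at the ends. MCM2, a subunit that also binds histones, had 2 to 28 UMIs with a median of 9, and 17.2 ± 7.68 per 100000. Both were thus present in all cells, and both were lowest in cell 18 and highest in cell 87 after scaling. MCM4, which with MCM6 and MCM7 forms the catalytic core, had 0 to 24 UMIs with a median of 6, and 11.7 ± 6.48 per 100000. MCM3 had 0 to 22 UMIs with a median of 5, and 8.09 ± 5.81 per 100000, highest in cell 50. MCM6 had 0 to 14 UMIs with a median of 3, and 5.97 ± 4.71 per 100000. MCM5, which forms a side of the gate through which the ring opens with MCM2, had 0 to 11 UMIs with a median of 2, and 5.69 ± 5.49 per 100000.

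Among neighbours in the order of the subunits, MCM6 and MCM5 could not be told apart. MCM6 had 1.10 times the UMIs of MCM5 (exact interval 0.888 to 1.38, counting error only), more UMIs in 18 cells, fewer in 16 and the same in 13. MCM7 exceeded MCM2 1.76-fold (1.58 to 1.97), with more UMIs in 41 cells and fewer in 3. The steps between were 1.39-fold from MCM4 to MCM2, 1.45-fold from MCM3 to MCM4 and 1.41-fold from MCM6 to MCM3. Each of these intervals lay above 1, but the scaled differences were smaller than their SD over cells, 3.61 ± 8.28 per 100000 for MCM4 over MCM3 for example. MCM2 had more UMIs than MCM4 in 35 cells and fewer in 10. MCM4 had more than MCM3 in 30 and fewer in 14, and MCM3 more than MCM6 in 25 and fewer in 18.

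All 6 subunits had a UMI in 33 cells, 5 of them in 10 cells and 4 in the remaining 4. MCM5 had none in 7 cells, MCM6 in 5, MCM3 in 4 and MCM4 in 2. At an equal depth of 29325 UMIs a MCM5 UMI would be expected in 70.8% of cells rather than 85.1%, and a MCM6 UMI in 74.7% rather than 89.4%. Depth did not go with every 0: MCM5 was at 0 in cell 39 with 95936 endogenous UMIs, and both MCM5 and MCM6 in cell 9 with 88466. With the recovery of the spike-ins taken to hold for mRNA, the mean number of molecules per cell was 104 ± 52.1 for MCM7, 59.6 ± 31.8 for MCM2, 41.7 ± 27.9 for MCM4, 28.5 ± 21.4 for MCM3, 21.1 ± 17.5 for MCM6 and 19.4 ± 16.5 for MCM5 (SD, n = 47).

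GMNN had the most UMIs of the 10 genes, 991 against 253 for the loader CDC6. GMNN had 5 to 52 UMIs per cell with a median of 20, and 33.6 ± 12.3 per 100000, highest in cell 50 at 60.3. It exceeded MCM7 by a ratio of 1.11 (exact interval 1.02 to 1.22), with more UMIs than MCM7 in 25 cells and fewer in 19. GINS2 had 1 to 36 UMIs with a median of 8, and 15.4 ± 8.63 per 100000, highest in cell 33 at 39.9. CDC6 had 0 to 21 UMIs with a median of 4, and 8.32 ± 6.12 per 100000. CDC45, a cofactor of the active helicase, had 0 to 15 UMIs with a median of 4, and 6.98 ± 5.17 per 100000. GINS2 lay next to MCM2, CDC6 next to MCM3 and CDC45 next to MCM6 in the order of the 10, and the intervals of these 3 ratios included 1. GMNN mRNA is short, 1262 bases, and CDC6 mRNA long, 4810 bases, each in the longest of 3 main transcripts annotated. Per kilobase GMNN stayed first, with 785 UMIs, while CDC6 with 52.6 fell from the sixth place to the eighth and CDC45 with 98.1 rose from the eighth to the fifth. As a tagged 5' end stands for 1 molecule whatever the length, the order per kilobase is not an order of molecules counted.

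**Figure D2:**
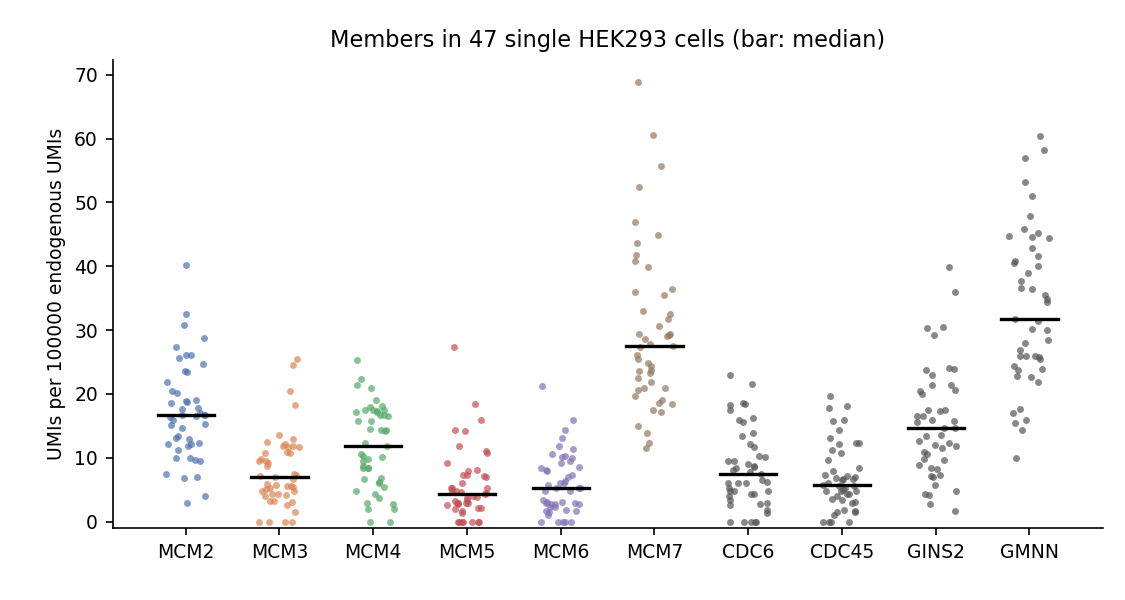
Points are single cells and bars are medians, in UMIs per 100000 endogenous UMIs, for each of the 10 genes. The medians of GMNN and MCM7, 31.8 and 27.5, lie above those of the other 8 genes, and MCM5 has the lowest, 4.33.

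The spread of each member over cells lay within the range of the spike-ins, as it did for most genes. Spread over cells is given as an index of dispersion. For each gene the observed counts were compared with those that the depth of each cell predicts, and the resulting chi-square per degree of freedom is near 1 if only counting error is present. A gene was called when its index exceeded that of every one of the 52 spike-ins with at least 20 UMIs, the highest of which was 3.97. None of the 10 members was called, against 3.21% of the 9088 genes with at least 20 UMIs (292 genes). At that share a count of 0 among 10 genes is not particular to them. GINS2 and MCM7 had the highest indices, 2.98 and 2.95, followed by GMNN with 2.65. MCM5, CDC6, MCM3, CDC45 and MCM6 had 2.52, 2.51, 2.34, 2.22 and 2.05, and MCM4 and MCM2 the lowest, 2.01 and 2.00. The median of the 10 was 2.43. It was 2.00 over all genes, 2.24 over the 2059 genes with totals between those of MCM5 and GMNN, and 2.399 over the 14 spike-ins in that range. With cells scaled by their spike-ins instead, 2 members, MCM7 with 4.70 and GMNN with 4.14, were above every spike-in, as were 8.95% of all genes.

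The sum of the 6 subunits had a higher index than its parts, though a lower relative spread: its coefficient of variation was 0.334, against 0.424 for MCM7 and up to 0.965 for MCM5. It had 11 to 129 UMIs per cell, with a median of 46. Per 100000 its mean was 78.5 ± 26.2 (SD, n = 47), lowest in cell 18 at 23.03 and highest in cell 3 at 142. Its index was 5.02, whereas the mean of the 6 single indices, weighted by their UMIs, was 2.44. Genes that vary independently would give a sum with an index near that mean. Summed spike-ins also rose above theirs, to 3.73 from 2.396 for the 14 in the members' range, so such a rise also occurred in added RNA. For the proportions of the 6 subunits to each other, the index of composition over cells was 1.77, against 2.25 for the composition of those 14 spike-ins. An index depends on the number of UMIs, so these values do not rank relative spread.

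**Figure D3:**
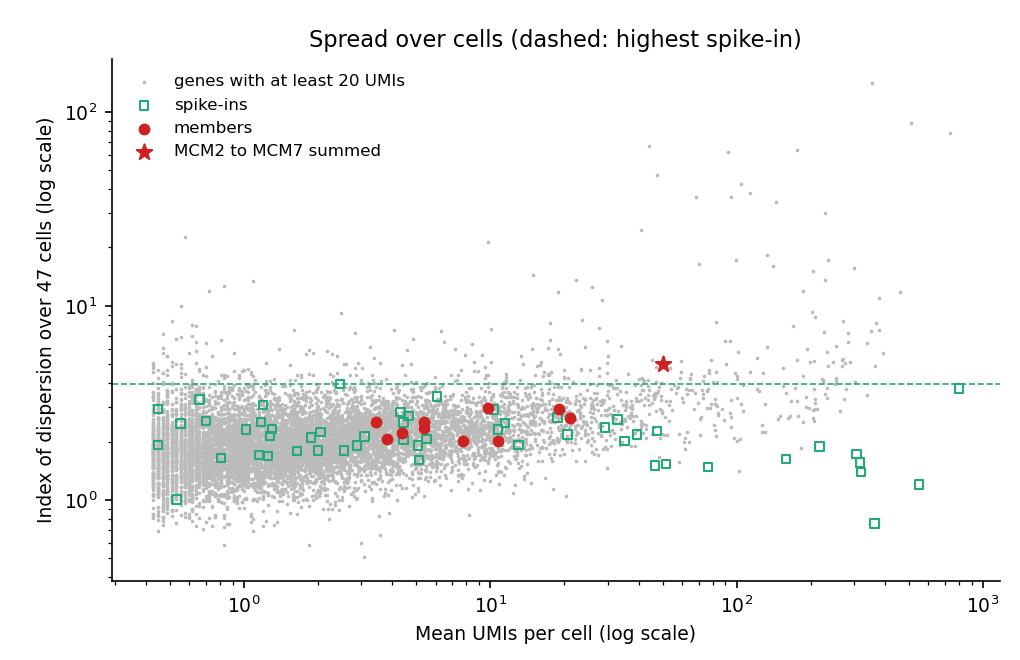
The index of dispersion over 47 cells is plotted against mean UMIs per cell, both on log scales, for all genes with at least 20 UMIs (grey), spike-ins (green squares) and the 10 members (red). All 10 members lie under the dashed line at the highest spike-in, 3.97, and the summed MCM2 to MCM7 (star) lies above it at 5.02.

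The members' mRNAs co-varied weakly to moderately over cells. Spearman's rho was computed for UMIs per 100000 over the 47 cells, which share 1 run, and is given as a description. All 15 pairs of subunits were above 0, with a median of 0.252 and a range of 0.0239 to 0.638. Over the 45 pairs of members the median was 0.180, and 43 were above 0. The median was 0.0180 over all pairs of genes with at least 20 UMIs, and 0.0216 over 91 pairs of spike-ins in the members' range. Of those gene pairs 18677968 of 41291328 were below 0, and of those spike-in pairs 35 of 91. A rho of at least 0.3 was reached by 4 of the 15 subunit pairs and 10 of the 45 pairs of members (22.2%). The background is 3.02% of the 41291328 pairs of genes with at least 20 UMIs and 3.25% of those with totals in the range of the members. The pairs of members share genes with each other and are not independent. When every cell was thinned to 29325 UMIs, the median of the subunit pairs was 0.140, and with cells scaled by spike-ins it was 0.410, where the median of all gene pairs also rose, to 0.0945.

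MCM5 and MCM6 were the most alike of the 45 pairs, with a rho of 0.638, a value that is extreme by choice. Without cell 23, the highest for MCM5, rho was 0.626, and after thinning, which leaves few UMIs of either, it was 0.376. In cells with label numbers up to 48 it was 0.690, and above 48 it was 0.471. MCM4 and MCM7, both of the catalytic core, had 0.447, MCM2 and MCM3 had 0.317, and MCM2 and MCM7 had 0.313. The other pairs of that core were lower than these, with 0.2998 for MCM4 and MCM6 and 0.2990 for MCM6 and MCM7. Apart from its pair with MCM2, MCM3 had low values: 0.0239 with MCM5, 0.0323 with MCM6, 0.107 with MCM4 and 0.139 with MCM7. Against the sum of the other 5 subunits MCM7 had the highest rho, 0.506, and MCM3 the lowest, 0.146.

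CDC6 followed the helicase genes most closely among the other 4 members. Its rho with the summed subunits was 0.510, and with MCM5, MCM7, MCM2 and MCM6 it was 0.478, 0.416, 0.414 and 0.376. CDC45 had 0.329 with the sum, most with MCM7 (0.360) and least with MCM3 (-0.0289). GINS2 had 0.268 and GMNN 0.224 with the sum. The pair GINS2 and GMNN had -0.102, the lowest of the 45, and none of the 6 pairs among these 4 genes reached 0.3. At these counts a weak rho for a pair, those of MCM3 included, is no finding.

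**Figure D4:**
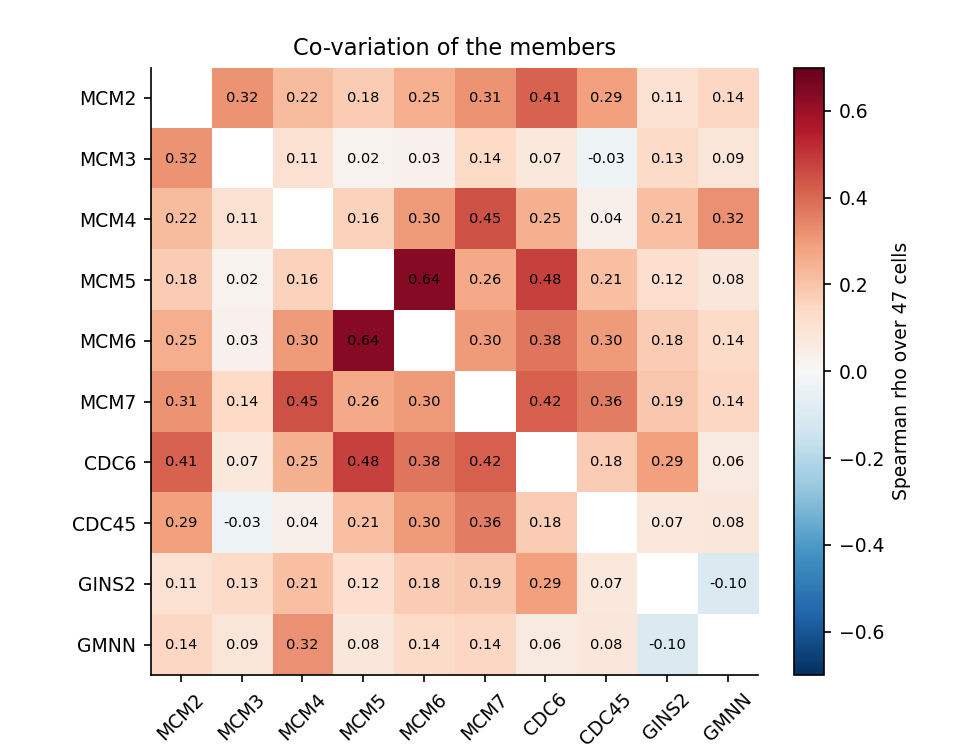
Each square gives Spearman's rho over 47 cells for a pair of members, in UMIs per 100000, from blue (negative) to red (positive). MCM5 with MCM6 is the darkest at 0.64, the CDC6 row is red against 4 of the subunits, and the MCM3 row is pale except against MCM2.

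The summed subunits were high in the cells that were high in other genes of the G1/S transition. Of 41 such genes, none of them a member, 40 had a row, and their summed level had a rho of 0.722 with the summed subunits (Pearson's r = 0.755, n = 47). Without cells 3 and 62, the farthest from the median, rho was 0.687 and r 0.698, and it was 0.673 in the 30 cells with label numbers up to 48 and 0.662 in the 17 above. Taken singly, 22 of the 40 genes reached a rho of at least 0.3 with the summed subunits, against 4.3% of 9078 genes that are no members, and all 40 were above 0. Their median was 0.317, against 0.0353 over all genes. The most abundant were RPA2, part of replication protein A, which coats single-stranded DNA (rho 0.434), DUT, which removes dUTP (0.264), and NASP, a histone chaperone (0.303). By member, MCM2 had the highest rho with the list's sum, 0.605, followed by MCM6 with 0.519 and MCM3 with 0.507. GINS2 and GMNN had the lowest, 0.106 and 0.174.

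Genes of G2 and mitosis leaned weakly the other way under this scaling. The sum of 55 of them had a rho of -0.227 with the summed subunits (r = -0.268, and -0.250 without cells 53 and 39). The sign depended on the scaling, since rho was 0.384 with cells scaled by spike-ins. It was -0.135 in cells numbered up to 48 and -0.456 above. Singly, 9 of the 55 genes had a rho of -0.3 or lower, against 1.34% of all genes, and 2 reached 0.3. Of the 3 most abundant, CKS2, which binds cyclin-dependent kinases, had -0.461, HN1 -0.172 and UBE2C, which works with the anaphase-promoting complex, -0.0550. MCM5 and CDC6 were the members with the lowest rho with the G2/M sum, -0.321 and -0.306, and MCM3 had the highest, 0.176, followed by GMNN with 0.116.

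The summed replication histone genes, whose mRNAs accumulate in S phase, had a rho of 0.340 with the summed subunits over all cells (r = 0.246). The cells were also divided into a lower and an upper range of the histone sum, after its values were seen. A wider gap than the dividing one, from 1322 to 1752 per 100000, lay inside the upper range, so separate groups of cells are not established. Of their 18030 UMIs, 16578 were of HIST1H4C. Only poly(A) RNA was tagged, and how far these counts follow the level of all replication histone mRNA was not tested. In 22 cells the histone sum was 99.3 to 469 per 100000, and there the summed subunits ranged from 23.03 to 142 with a median of 68.7. Within these cells rho was 0.462 (r = 0.626). In the other 25 cells the histone sum was 622 to 1752, the summed subunits ranged from 47.7 to 138 with a median of 83.0, and rho was -0.207 (r = -0.362). Cells 3 and 50 were the highest of the lower range on both measures. Their summed subunits were 142 and 132 and their histone sums 469 and 460. How much the rho and r of the lower range rest on these cells was not tested.

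**Figure D5:**
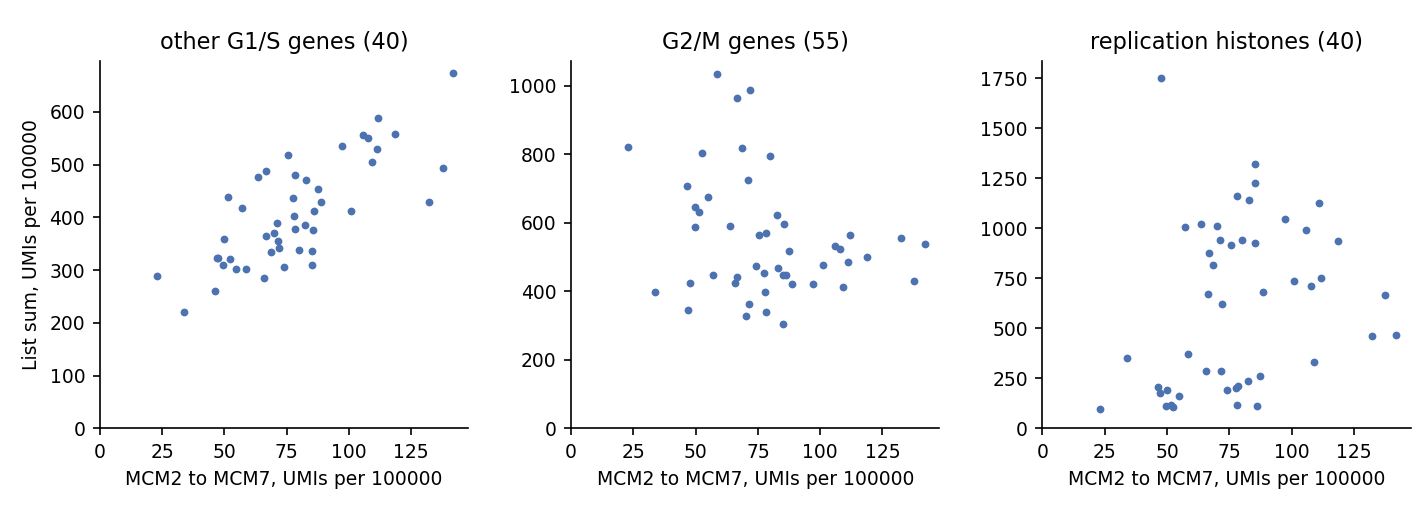
Each point is a cell, with summed MCM2 to MCM7 on the horizontal axis and the summed level of 3 gene lists on the vertical axes, all in UMIs per 100000. The 40 other G1/S genes rise with the subunits (rho 0.722), and the 55 G2/M genes do not (rho -0.227, but 0.384 with spike-in scaling). The histones have a rho of 0.340.

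The cells at the ends of the range were picked by their summed subunits. High or low levels of the abundant subunits there follow largely from that choice. Cell 3 had 79 subunit UMIs among 55664, with 31 of MCM7, 16 of MCM2, 10 of MCM4, 8 each of MCM5 and MCM6 and 6 of MCM3, and it was also the highest for the other G1/S genes, 674 per 100000. Cell 87 reached 138 per 100000 with 24 UMIs of MCM7 and 14 of MCM2 but none of MCM3. Cell 50 reached 132 with 22 UMIs of MCM3, the most of any cell, and 52 of GMNN, also the most. All 3 cells were above the mean in MCM7, MCM2, MCM4 and MCM6 after scaling, while MCM3 was at 0 in cell 87 and 25.5 per 100000 in cell 50. MCM5 was below its mean of 5.69 per 100000 in cell 87 (2.87) and cell 50 (4.64), and above it in cell 3 (14.4). At the low end, cell 18 had 16 subunit UMIs among 69482, and its G2/M sum was 822 per 100000. Its 12 UMIs of GINS2 (17.3 per 100000) lay above the GINS2 median of 14.6. Its 18 of GMNN (25.9 per 100000) lay below the GMNN median of 31.8. Cell 10 had 11 subunit UMIs among 32527 and none of MCM5, MCM6 or CDC6.

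Relations to depth were modest after scaling. The summed subunits per 100000 had a rho of 0.254 with the endogenous total of a cell (r = 0.230, and 0.171 without cells 43 and 62). It was 0.387 in cells numbered up to 48 and -0.00490 above. MCM3 and MCM4 had 0.362 and 0.345 and MCM2 0.0466. Unscaled UMIs rose with the total, with a rho from 0.366 for MCM5 to 0.754 for GMNN. The part of depth in the relations between members was tested only by the scaling and thinning given with them.

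Other genes of origin licensing and firing were mostly rarer than the helicase subunits. The 6 genes of the origin recognition complex had 707 UMIs together. ORC4 led with 228 UMIs, ORC6 had 190 and ORC3 114, and ORC1, the subunit that comes and goes with the cycle, had 28 in 16 cells. None of the 6 reached a rho of 0.3 with the summed subunits, which 4.3% of all genes did, with ORC6 and ORC3 highest at 0.282. CDT1, which loads the ring together with CDC6, had 173 UMIs and a rho of 0.1002. MCMBP, an MCM-binding protein, had 181 UMIs (0.169), and MCM10, which acts at helicase activation, had 161 (0.106). MCM8 and MCM9, relatives that work in DNA repair, had 69 and 32. None of these 11 genes was called for its spread, with indices of at most 2.402.

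Of 7 kinase and cyclin genes that fire origins, 6 had at least 20 UMIs. DBF4, the activator of the kinase CDC7, had 167 UMIs (rho 0.0208), CDK2 150 (0.306) and CCNA2 126 (0.0646). CDC7 itself had 76 and a rho of 0.338, so 2 of the 6 reached 0.3, against the same 4.3% of all genes. Among 15 genes of helicase activation and the fork that had rows, POLE3 and POLE4, small subunits of DNA polymerase epsilon, were the most abundant with 582 and 479 UMIs, and TIPIN, a fork protection protein, had 254. Their rho with the summed subunits was -0.00648, 0.107 and 0.231. CLSPN and TOPBP1, with 0.589 and 0.346, were the 2 of the 15 that reached 0.3, and with so few genes these counts set no list apart from the 4.3%. The other GINS subunits were rarer than GINS2 with its 459 UMIs: GINS4 had 129, GINS1 86 and GINS3 56.

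The genes most like the summed subunits were picked from 3675 genes with at least 100 UMIs that are no members, so their rho values are extreme by choice, and 4.98% of those genes reached 0.3. CLSPN, which encodes the checkpoint and fork protein claspin, had the highest rho, 0.589. NCAPD3, a condensin II subunit, followed with 0.574, KIAA0101, a PCNA-binding factor, with 0.553, RPL14P1, a ribosomal protein pseudogene whose reads may come from its parent gene, with 0.548, and TK1, thymidine kinase, with 0.509. MTHFD1 had the same value as TK1 and fewer UMIs. At the opposite end were MZT2B (-0.574), COQ4 (-0.528), UBE2S (-0.473), IMMP1L (-0.468) and CCNB1 (-0.463), of which UBE2S and CCNB1 act in mitosis.

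In 4 members another gene starts within 1000 bases on the opposite strand in GENCODE 29, and these neighbours were not alike in level. MCM4 and PRKDC, which encodes the DNA-dependent protein kinase, start 2 bases apart, and PRKDC had 36.8 ± 19.8 per 100000 (SD, n = 47) against 11.7 for MCM4. Their rho was 0.199, while PRKDC had 0.426 with the summed subunits. CDC45 and UFD1L start 244 bases apart, with 6.98 against 16.6 ± 8.90 per 100000 and a rho of 0.0101. MCM7 shares up to 216 bases of exon with AP4M1, and MCM2 45 with TPRA1, each on the opposite strand. AP4M1 and TPRA1 had 40 and 72 UMIs against 890 and 506. MCM2 also shares up to 774 bases with the antisense gene AC023593.1, which had no row. The use of strand in counting is not given in the sources used here, so reads from the shared stretches could be counted for either gene that has a row.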

How the data were processed

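Raw UMI counts were deposited as a table of genes by cells. Trimming and alignment tools named in the submitters' processing notes are cutadapt 1.2.1 and STAR 2.4.0a, with hg19 and GRCh37 as builds. Annotation, UMI collapsing, strand use and cell filter are not given in the sources used here. All 47 columns matched a cell's label, and no 2 columns were identical. A repeated header line, 0.0602% of the table's sum, was dropped, and 78 spike-in rows were kept out of the totals. Levels, dispersion indices and correlations were computed with Python 3.11.15, NumPy 2.4.6, pandas 2.3.3 and SciPy 1.17.1 for genes with at least 20 UMIs, after the code was tested on simulated data. Intervals are exact (95%) and cover counting error only. A count of 0 over all cells allows a share of up to 0.000103% (3 counts). Members and gene lists were chosen with earlier results of these data known. Genes named besides the 10 members were the 3 most abundant of each list, the 5 most and the 5 least like the summed subunits among genes with at least 100 UMIs, genes starting within 1000 bases on the opposite strand, and a few more named for their role or value. Alternatives were spike-in scaling, median-of-ratios size factors, thinning (mean of 20 draws), Pearson correlation, other minimums, division by length, cells left out, and cells split at label number 48. Reference tables (GENCODE 29, RefSeq GRCh38.p14) are of another build than the counts and gave only names, lengths, neighbours and promoters.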

Additional observations from a re-analysis of the deposited data

How the results depend on the processing

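Of 124 alternative values, 66 of main results and 41 of single genes or pairs lay within the spread set for them, while 9 and 8 did not. That spread was the SD over pairs for rho of pairs, and over the 6 subunits for rho of their sum. For shares it was the SD over cells, and for indices that over spike-ins. It is not the error of a result. The fall of the median rho of subunit pairs from 0.252 to 0.140 with thinning lay within its spread of 0.158. A count of members was compared directly. Scaling by spike-ins accounted for 6 of the 9 larger moves among the main results. It gave a median rho of 0.410 for subunit pairs and 0.357 for pairs of members, a rho of the summed subunits of 0.852 with other G1/S genes, 0.384 with G2/M genes (a change of sign) and 0.660 with the endogenous total, and 2 members with an index above every spike-in. The split by label number gave the others: -0.456 with G2/M genes above 48, and 0.387 up to 48 and -0.00490 above with the endogenous total. The cause was not tested. Shares of the 6 subunits moved by less than their SD over cells under each alternative, and these values are among the 66. That SD is wide against the counting intervals of the pooled shares, so it could hardly show a move. Division by length put MCM7 at 42.98%, above the upper limit of its interval, 39.8%. It put MCM4 at 12.46%, below the lower limit of its interval, 14.1%. The shares of MCM2, MCM3, MCM5 and MCM6 divided by length stayed within their intervals. The 41291328 gene pairs reached a rho of 0.3 in 3.02% of cases, and in 10.1% with spike-in scaling, where 33 of the 45 pairs of members did. Depth limits MCM5 and MCM6 most, with medians of 2 and 3 UMIs per cell. No paired analysis was possible because the labels give 1 group.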
